A study of Mus musculus with 26 samples.

Results

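Splicing factors and heterogeneous nuclear ribonucleoproteins (hnRNPs) were taken as every transcript whose gene symbol begins with Srsf, Hnrnp, Hnrp, Sf3a, Sf3b, Snrp or Prpf. These 7 prefixes gave 63 of the 8576 transcripts in each of the 2 transgenic tables and 65 of the 9561 in the knockout table. The members fall into 12 Sm and other small nuclear ribonucleoprotein (snRNP) proteins, 8 subunits of SF3a and SF3b, 12 Prp factors (13 in the knockout table), 11 transcripts of the Srsf prefix (12 in the knockout table) and 20 hnRNP transcripts. Prpf39 and Srsf13b were listed in the knockout table only, and Hnrnpa1 was listed as 2 transcripts, uc007xxp.1 and uc012aai.1. The reference annotation placed the transcript listed as Srsf8 (uc008zsu.1) at Sfswap. The one listed as Srsf12 (uc007rsh.1) was left without an annotation by choice, because its symbol and description were taken to name different genes. Both are given by their listed symbols with no role. Srsf13b corresponds to the gene now named Srsf12, and Hnrpdl to Hnrnpdl. Near-identical coding sequences, such as Hnrnph1 with Hnrnph2 and Snrpn with Snrpb, may share reads.

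Ribosome footprinting and RNA-Seq were done on striatum of C57BL/6 mice aged 3 months, in mice that carry or lack forms of LRRK2, the kinase mutated in inherited Parkinson's disease. GS LRRK2 TG mice express G2019S LRRK2, the disease form with raised kinase activity, and GS/DA LRRK2 TG mice express the same form with a second change, D1994A, that removes kinase activity. Both transgenic genotypes were compared with non-TG control mice, whose genotype is labelled wild-type, and LRRK2 KO mice, which lack the gene, were compared with WT mice. Each sample pooled the caudate putamen of 3 mice of mixed sex, and the labels list 2 or 3 samples per genotype and assay. Each transgene was driven by a CaMKII promoter through a tetracycline-off system, which acts mainly in forebrain neurons, and each came from 1 high-copy line. Doxycycline food kept the transgenes silent until weaning.

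Splicing removes introns in the spliceosome, whose snRNPs carry a ring of Sm proteins, whose SF3a and SF3b subunits hold the U2 snRNP at the branch site, and whose Prp factors build and drive the catalytic complex. SR proteins bind exons and mostly favor their inclusion, whereas hnRNPs coat nuclear RNA, often repress splice sites, and also act in the export, transport and decay of mRNA. In neurons many of these proteins are abundant, and many SR and hnRNP genes limit their own level through alternative exons that send the transcript to decay.

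Footprints of Lrrk2 itself followed the labels in all 3 comparisons, and its RNA-Seq did so in KO only. WT libraries held 690.1 and 400.3 normalized footprints of Lrrk2 and KO libraries 149.7 and 102, a log2 difference of -2.12. Both KO libraries lay below both WT libraries, as they did in RNA-Seq, where Lrrk2 had 733 and 1278 in WT and 270.0 and 423 in KO, a difference of -1.54. Footprints of Lrrk2 were 1224 and 1445 in non-TG control and 4766 and 7267 in GS/DA, a difference of 2.17, with both GS/DA libraries above both controls. In GS the libraries held 7052 and 3320.5, both above the control mean of 2524. That control mean was above the 1335 of the GS/DA table, whereas the median control footprints of all transcripts were lower, 564 against 715. The higher Lrrk2 value in the GS controls was not explained by any test here. RNA-Seq of Lrrk2 was not higher in the transgenic groups, with 560.2 and 5233 in control against 404 and 5038 in GS/DA, a difference of -0.09, and with 214 and 3549.6 in GS beside a control mean of 2105, a difference of -0.16. limma, a linear-model test fitted across all transcripts, gave Lrrk2 footprints an adjusted p of 1.00 in KO and 0.691 in GS/DA. With libraries paired across genotypes as a replicate block, limma gave an adjusted p of 8.08e-22 and 0.000733. Here and below, that pairing was drawn from the same values and not from labels, so block values are not evidence from a labelled paired design. In the KO block fit the median standard error was 0.190 for the members and for all transcripts alike.

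Markers of striatal neurons were present in every table, with 13 of 15 symbols listed; Drd1 and Penk1, other names for the listed Drd1a and Penk, were the 2 not found. Ppp1r1b, a dopamine-regulated phosphatase inhibitor of striatal projection neurons, was the most abundant of them, at 42124 footprints in the controls of the GS/DA table and 9040.0 in WT. No endothelial marker of 5 was listed in any table, and of 6 markers of choroid plexus and meninges only Ttr was. The samples are bulk striatum, so fewer cells of a type and less RNA per cell cannot be told apart.

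Values are reads in the coding sequence (CDS) divided by the size factor of each library, and the 3 tables were normalized separately, so levels are not compared between tables, except for Lrrk2 in the controls above. Translational efficiency (TE) is the log2 ratio of the footprinting mean to the RNA-Seq mean, and a TE difference is genotype minus control. Transcripts whose TE difference lay more than 1.5 SD above or below the mean of their table are called TE up or TE down. The deposited means were resolved into 2 libraries each for 10 of 12 columns, and the controls of the GS table were not resolved, so GS values are set beside a control mean. Those control means may hold 3 libraries, a case that the method did not resolve in simulated data. Libraries are numbered 1 and 2 by a technical difference shared between groups and carry no replicate number. Footprinting libraries held 6558493 to 15947579 reads in the transgenic tables and 2631469 to 5581138 in the knockout table, and the members took 1.17% to 1.38% of them. RNA-Seq libraries held 7328800 to 12900693 reads in the transgenic tables and 2877490 to 10207900 in the knockout table.

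In control striatum the splicing factors and hnRNPs, apart from the Prp factors, held more footprints and more RNA-Seq reads than most listed transcripts. The member median was 1786 footprints per kilobase of CDS against 471 for all transcripts in the GS/DA table, and 394 against 109.7 in WT, and 1081 against 482 and 495 against 187 RNA-Seq reads per kilobase. Median control TE was 0.27 against 0.04 in the GS/DA table, 0.17 against -0.17 in the GS table, and -0.31 against -0.64 in WT. The hnRNPs had the highest median control TE of the families in all 3 tables, 0.51 in the GS/DA table and -0.03 in WT. Per kilobase, hnRNPs (2904) and Sm and snRNP proteins (2822) held the most control footprints in the GS/DA table and Prp factors the fewest (432, under the median of all transcripts), in the same order as in WT. The CDS of the members was shorter than that of all transcripts, with a median of 1191 against 1512 bases, and its GC content lower, 50.7% against 52.8%. The 5′UTR folding energy of the members, a deposited score in kcal/mol, had a median of -69.1 against -91.2, with the transcript listed as Srsf8 lowest at -1235 and Sf3a3 highest at -7. The members were spread over the genome, with no more than 7 symbols on any chromosome (mm9 chromosomes 2 and 7), and Hnrnpd and Hnrpdl lay near each other on chromosome 5, starting at 100387445 and 100462596.

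Among the hnRNPs, Hnrnpa2b1 (uc009bxm.1), which also carries mRNA along dendrites, held the most control footprints per kilobase of any member, 10111 in the GS/DA table and 2844 in WT. Hnrnpk (uc007qts.2), which binds C-rich RNA, came next with 9395 and 2391. Hnrnpa3 had the highest control TE of the GS/DA table, with footprints of 7854 and 4775 and RNA-Seq of 1607 and 1646 in the control libraries and a TE of 1.96. Its footprints exceeded its RNA-Seq signal in both libraries. Hnrnpa0 followed at a TE of 1.80, with footprints of 5563 and 3686 but RNA-Seq of 2354 and 297 in libraries 1 and 2, so the 2 RNA-Seq libraries were far apart. Hnrnpa2b1 at 1.47 and Hnrnpd, a binder of AU-rich elements, at 1.45 were also among the 5 highest. Hnrpdl, which is closely related to Hnrnpd in sequence, was far lower at -0.07, with control footprints of 3564 and 3521 and RNA-Seq of 1842 and 5612. In WT the highest hnRNPs were Hnrnph2, a binder of G-rich RNA, at 0.41, Hnrnpk at 0.41 and Hnrnpa0 at 0.28, whereas Hnrnpul1 was among the lowest at -1.23. Hnrnpa3 was not among the highest in WT, at -0.11.

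Snrpn (uc009her.1), a Sm protein made mainly in neurons from an imprinted locus, had the lowest control TE of all members in every table. Its WT libraries held 1014 and 1227 footprints and 4452 and 5017 RNA-Seq reads, a TE of -2.08. RNA-Seq exceeded footprints in both WT libraries, and the TE was -1.72 in the GS/DA table. In WT most transcripts had RNA-Seq means above their footprinting means, with an upper quartile of control TE of -0.25. Snrpn was still among the most footprinted members per kilobase, with 5948 in the GS/DA table and 1556 in WT. Its close relative Snrpb, which serves the same position of the Sm ring in most tissues, had a TE of 0.68 and -0.14. Other Sm core proteins lay on both sides of the median TE of all transcripts in the GS/DA table, 0.04: Snrpd1 was at 0.30, Snrpd2 at -0.08 with 5569 footprints per kilobase, and Snrpf at -0.30. The U2 snRNP proteins differed within each table, with Snrpb2 at 0.19 and Snrpa1 at -1.01 in the GS/DA table and 0.35 and -0.87 in WT.

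Srsf1, a founding member of the SR proteins, was among the 5 members with the highest control TE in the GS/DA table, with 1880.1 and 2109 footprints and 431 and 980.1 RNA-Seq reads. Srsf5 held 3085 footprints per kilobase there. Srsf9 stood at the other end, with footprints of 278 and 339.6 against RNA-Seq of 732 and 597, a TE of -1.11, and -1.91 in WT. Both control libraries of Srsf9 had more RNA-Seq signal than footprints in the GS/DA table and in WT, where this held for the means of most transcripts. The transcript listed as Srsf8 was similarly low, at -1.25 and -1.79. Among the spliceosome factors, Prpf19, a ubiquitin ligase that activates the spliceosome, held 3614 footprints per kilobase in the GS/DA table. Prpf8, the scaffold around the catalytic core, held 313 in WT. Sf3b1, the largest SF3b subunit, held 1287 in the GS/DA table and 392 in WT, and Sf3a1 held 821 and 229. Prpf40b, a U1-associated WW-domain protein, had a low control TE of -0.94 in the GS/DA table, and Prpf38b a low one of -1.25 in WT.

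**Figure D1:**
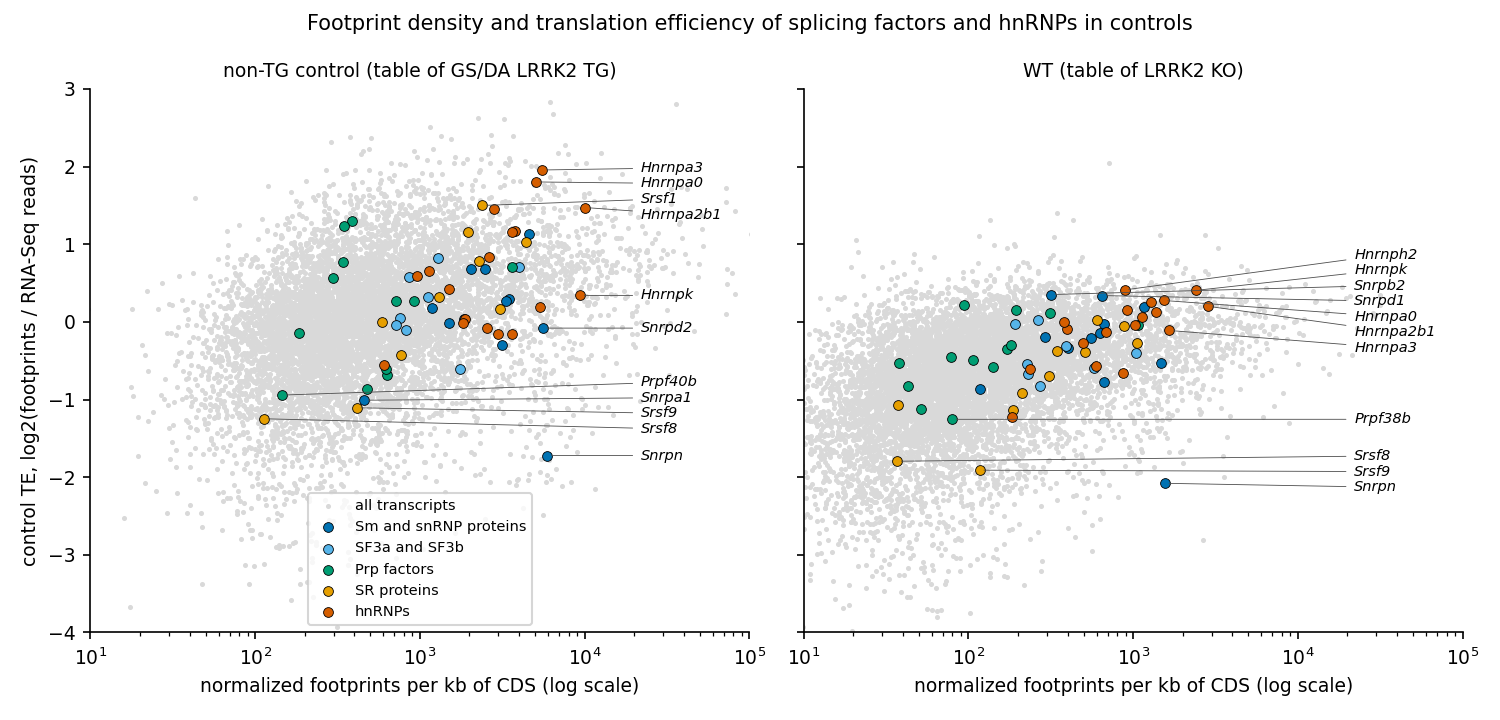
Control TE (log2 ratio of footprinting to RNA-Seq) against control footprints per kilobase of CDS (log axis) for the non-TG control of the GS/DA table and for WT. Gray points are all transcripts and colored points the members by family; both Hnrnpa1 transcripts and the one listed as Srsf12 have no value per kilobase and are not drawn. Most hnRNPs lie to the right and spread widely in TE, and Snrpn lies low at -1.72 and -2.08.

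Within a group of the transgenic tables, RNA-Seq values of the members differed much more between libraries 1 and 2 than footprints did, and they did so by base composition. Sf3a2, with a CDS GC content of 62.6%, had 1620.1 and 73.3 RNA-Seq reads in the control libraries, and 1658 and 77.8 in GS/DA. Prpf4b, with a GC content of 43.2%, had the reverse order, 249.8 and 710.4 in control and 194 and 1159 in GS/DA. Library 1 was the high one for the GC-rich gene and library 2 for the GC-poor gene, in both groups. Over the members, the log2 ratio of library 1 to library 2 had a Spearman rho with CDS GC content of 0.69 in control (n = 60), 0.71 in GS/DA (n = 62) and 0.71 in GS (n = 61). These are relations across genes, which are not independent replicates. TE differences of the members followed the RNA-Seq side of the ratio, with a rho of -0.83 against the RNA-Seq difference in GS, -0.77 in GS/DA and -0.82 in KO; TE contains the RNA-Seq value, so a negative relation is built in.

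The comparison of GS LRRK2 TG with non-TG control asks whether a kinase-active LRRK2 goes with a different translation of the splicing machinery. In GS striatum, most hnRNP and SR transcripts had lower RNA-Seq means than in control, with footprints nearer to control, and so a higher TE. The median TE difference of the hnRNPs was 0.27, with 17 of 20 above 0 (all transcripts, 54.8%), and that of the Srsf prefix was 0.16, with 10 of 11 above 0, and 0.16, with 8 of 9 above 0, without the transcripts listed as Srsf8 and Srsf12. Over all 63 members the median was 0.12 against 0.02 for all transcripts, with 45 above 0 (71.4%; all transcripts, 54.8%). It was 0.056 after a lowess fit on CDS GC content was subtracted (62 members), which also takes out the level of all transcripts. The RNA-Seq medians were -0.11 against -0.02, and the footprinting medians -0.02 against 0.00. TE was called up for 10 members (15.9%) against 8.01% of all transcripts, and down for 1 (1.59%) against 3.91%. Both GS RNA-Seq libraries lay below the control mean for 13 of 62 members (all transcripts, 8.35%) and above it for 5 (all transcripts, 5.45%). By family, both lay below it for 6 of 20 hnRNPs and 5 of 11 transcripts of the Srsf prefix, and above it for 1 of each. Most of the lower hnRNP RNA-Seq means thus rested on 1 of the 2 libraries. The median size of the log2 ratio between these libraries was 1.15 for hnRNPs, as for all transcripts. Both GS footprinting libraries lay below the control mean for 19 of 63 members (all transcripts, 20.8%) and above it for 8 (all transcripts, 19.7%).

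Of the hnRNPs, 5 of 20 transcripts were TE up (all transcripts, 8.01%) and 0 were TE down (all transcripts, 3.91%). Hnrnph3, a G-rich RNA binder, had 335 and 384 RNA-Seq reads in the GS libraries beside a control mean of 587, and 591 and 736 footprints beside 807. All 4 GS values lay below their control means, RNA-Seq by more, and the TE difference was 0.43. Hnrnpa2b1 had 1826 and 3068 RNA-Seq reads beside a control mean of 3442, and 7424 and 8514 footprints beside 8423, a TE difference of 0.41. The Hnrnpa1 transcript uc012aai.1, whose protein silences exons, had 686 and 1154 beside 1249 in RNA-Seq and 2014 and 2427 beside 2313 in footprints, a TE difference of 0.38. That value was barely past the cutoff of 0.376, and the other transcript of the gene, uc007xxp.1, was not called. For Hnrnpa2b1 and uc012aai.1, the 2 RNA-Seq libraries were low and the footprints fell on either side of the control mean. Hnrnph1 had 535 and 2474 RNA-Seq reads beside 2132, and 4269 and 4223 footprints beside 4278, a TE difference of 0.49. Hnrnpd had 1045 and 632 beside 1035 in RNA-Seq and 2597 and 2671 beside 2491 in footprints, a TE difference of 0.39. For these 2 genes a single RNA-Seq library lay below the control mean, library 1 for Hnrnph1 and library 2 for Hnrnpd.

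Hnrnpm and Hnrnpu had TE differences of 0.36 and 0.33, under the cutoff of 0.38, and were singled out with Hnrnpa3 after their values were seen. Hnrnpm had 905 and 1239.8 RNA-Seq reads beside a control mean of 1458, both libraries low. Hnrnpa3 was below its control means in both assays, with 709 and 1447 beside 1481 in RNA-Seq and 3909.8 and 4732 beside 5173 in footprints, and a TE difference of 0.20. Hnrnpk, Hnrnpl and Hnrnpul1 had TE differences just below 0, of -0.05, -0.06 and -0.03, and were the 3 hnRNPs on that side.

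The Srsf prefix held 2 TE-up transcripts of 11 (18.2%; all transcripts, 8.01%), Srsf11 and the one listed as Srsf12, and the 1 TE-down member, Srsf9 (9.09%; all transcripts, 3.91%). Srsf11 (uc008rvm.1) had 490.1 and 776 RNA-Seq reads in GS beside a control mean of 906, and 662 and 1110.3 footprints beside 852. Both RNA-Seq libraries were below control while footprints lay on either side, and the TE difference was 0.57. The transcript listed as Srsf12 had 63.0 and 249 RNA-Seq reads beside 274, both below control, and a TE difference of 0.85. Srsf9 had 227 and 196 footprints beside 238, and 707 and 596 RNA-Seq reads beside 606. Its footprints were below control in both libraries, its RNA-Seq straddled the control mean, and the TE difference was -0.27. That value, -0.275, was barely past the cutoff of -0.274, and Srsf9 was not called with a pseudocount of 10. Srsf3 and Srsf7, which also act as adaptors for mRNA export, were not called, at 0.28 and 0.32, and are given here, with Srsf5, after their values were seen. RNA-Seq of Srsf3 was 566 and 775 beside a control mean of 925, and that of Srsf7 402 and 766 beside 877, with both GS libraries low for each gene. Srsf5 had the highest footprinting difference of the members, with 3389 and 2052 footprints beside 1824, a difference of 0.58, and both libraries above control.

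Among the Prp factors, 3 of 12 were TE up (all transcripts, 8.01%) and 9 had a TE difference above 0. Prpf38b (uc008qzx.1), a spliceosome factor with an arginine-serine-rich tail, had the highest TE difference of all members, 1.09. Its RNA-Seq values were 92.4 and 173 in GS beside a control mean of 310.3, and its footprints 269.5 and 489 beside 418. Both RNA-Seq libraries were far below control, while 1 footprinting library was below and 1 above. Prpf4b, a kinase that phosphorylates tri-snRNP proteins, had 164 and 511 RNA-Seq reads beside 464, and 960.0 and 974 footprints beside 892, a TE difference of 0.58. Prpf3, a protein of the U4/U6 snRNP, had 299.7 and 250.2 RNA-Seq reads beside 376, and 238 and 371 footprints beside 313, a TE difference of 0.41. Prpf4b thus had 1 RNA-Seq library below and 1 above control, and Prpf3 had both below. Prpf4, the partner of Prpf3, was among the 5 lowest members, with footprints of 315 and 299 beside 366 and a TE difference of -0.17.

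Of the 20 members of the core snRNP families, 0 were called (all transcripts, 8.01% up and 3.91% down). The median TE difference was 0.02 for Sm and snRNP proteins and -0.07 for SF3a and SF3b, where 2 of 8 lay above 0. Snrpb, of the Sm ring, was among the lowest at -0.17, with 1379 and 1104 footprints beside 1355, and 1739 and 497 RNA-Seq reads beside 1081. Sf3b5, a small SF3b subunit, was at -0.17, Snrpe at -0.14, Sf3a2 at -0.14 and Sf3b4 at -0.12. Larger values lay on the other side, with Snrpg at 0.35, Snrpa1 at 0.33, Sf3b1 at 0.27 and Snrpb2 at 0.22, given here after their values were seen. Sf3b5 had both footprinting libraries at 815 and 855, on either side of the control mean of 819.8. Sf3a3 and the transcript listed as Srsf8, which mark the extremes of 5′UTR folding energy, had TE differences of 0.12 and 0.05.

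Of 22 SR protein kinases and SR-related genes, 18 were listed, with a median TE difference of 0.23 in GS, 3 TE up (16.7%; all transcripts, 8.01%) and 0 TE down (all transcripts, 3.91%); the list was not tested as a group. Clk1, a kinase of SR proteins, had 84.0 and 360.1 RNA-Seq reads in GS beside a control mean of 363, and 256 and 498 footprints beside 419, a TE difference of 0.56. Clk4 of the same kinase family was at 0.68 and Pnn, a nuclear speckle protein, at 0.48. Other spliceosome components, 66 of 72 listed, had a median TE difference of 0.02, with 9 up (13.6%; all transcripts, 8.01%) and 1 down (1.52%; all transcripts, 3.91%), and their highest was Ddx46, a helicase of the U2 snRNP, at 0.80. No spread of the control is known here, so limma could not be run for GS. Summed cortical markers, 4 of 6 listed, came to 1161 and 1550.5 RNA-Seq reads in the GS libraries beside a control mean of 2159, and to 2483 and 575 footprints beside 1757, with Slc17a7 the most abundant. Ttr, the 1 choroid plexus marker listed, had 1037 and 408 footprints in GS beside 3944 in control, and the part of either list in the TE values was not tested.

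**Figure D2:**
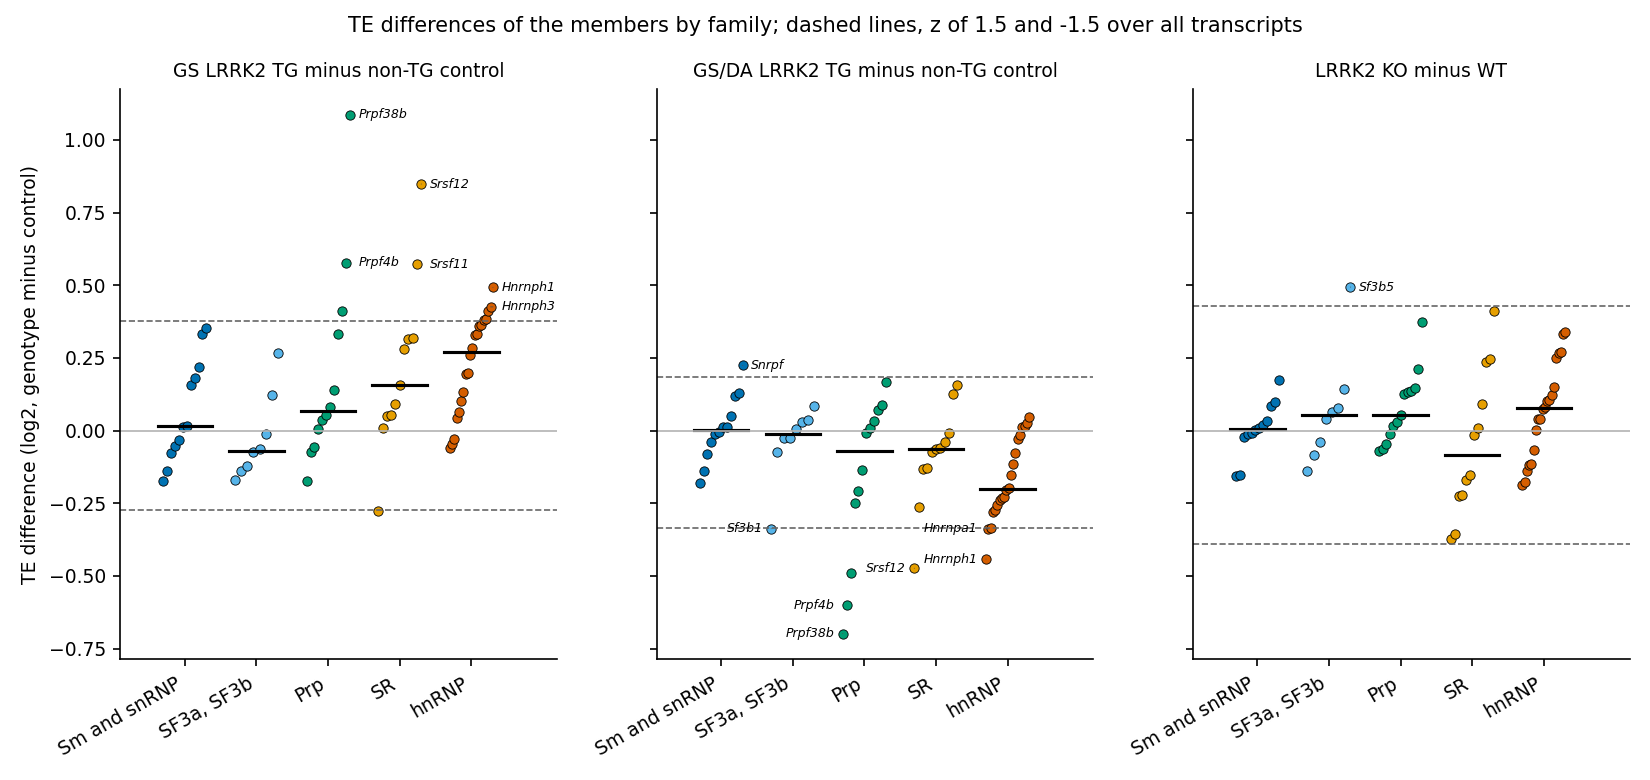
TE difference (log2, genotype minus control) of each member by family, with 1 panel each for GS, GS/DA and KO; points are members, black bars are family medians and dashed lines are the TE up and TE down cutoffs. The hnRNP median is 0.27 in GS, -0.20 in GS/DA and 0.08 in KO; in each family the 2 called members furthest from 0 carry symbols, with Prpf38b at 1.09 in GS and -0.70 in GS/DA.

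GS/DA LRRK2 TG against non-TG control asks what remains when the mutant protein lacks kinase activity. In GS/DA striatum the mean footprints of most members lay slightly under control, lowest at Hnrpdl. This was clearer in library 1 than in library 2. The median footprinting difference was -0.05 against -0.01 for all transcripts, and 18 of 63 members were above 0 (28.6%; all transcripts, 47.5%). In library 1 the median was -0.07, with 16 of 61 members above 0 (all transcripts, 4027 of 8379). In library 2 it was -0.03, with 28 of 61 above 0, near the share of all transcripts (4016 of 8379). Both GS/DA footprinting libraries lay below both control libraries for 9 of 61 members (14.8%; all transcripts, 12.3%) and above them for 2 (3.28%; all transcripts, 12%). The share below is near that of all transcripts, and no family was tested as a group. The TE of hnRNPs in GS/DA had a median difference of -0.20, with 4 of 20 above 0 (all transcripts, 33.5%). Their RNA-Seq median was 0.11, but it was -0.22 in library 1 and 0.24 in library 2, so the RNA-Seq side of this TE turned with the library. Over all members the TE median was -0.06 against -0.05 for all transcripts, and -0.0057 after a lowess fit on CDS GC content was subtracted.

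Hnrpdl (uc008ygx.1), an hnRNP related to the AU-rich element binder Hnrnpd, had 3564 and 3521 footprints in control and 2734 and 2543 in GS/DA. The 2 groups did not overlap and the libraries within each were close. The log2 difference of the means was -0.42, and limma gave -0.42 with an SE of 0.116, an unadjusted p of 0.0112 and an adjusted p of 1.00. RNA-Seq of Hnrpdl was 1842 and 5612 in control and 1335 and 5169 in GS/DA, with overlapping groups. Hnrnph1 was the other hnRNP with both GS/DA footprinting libraries below both controls, 5629 and 5375 in control and 4983 and 5220.2 in GS/DA, a difference of -0.11. Hnrnpm was higher, 2570.3 and 2409.7 in control and 2628 and 2612 in GS/DA, a difference of 0.07. Neither overlapped its control, although the gaps were small.

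The Srsf prefix held 4 of the 9 members with both GS/DA footprinting libraries below both controls, which is 4 of its 11 (36.4%; all transcripts, 12.3%). Srsf3 had 2495 and 2130.1 footprints in control and 2007 and 1966 in GS/DA, a difference of -0.22. Srsf7, its closest relative among the SR proteins, had 2029 and 1730.4 in control and 1674 and 1612 in GS/DA, a difference of -0.19. In both, library 1 of the control was the highest value and the GS/DA libraries were close together. Srsf5 had 2635 and 2369 in control and 2367 and 1998 in GS/DA, a difference of -0.20, and its lower control library was only just above the higher GS/DA library. Srsf9 had 278 and 339.6 in control and 249 and 275 in GS/DA, a difference of -0.24. The transcript listed as Srsf8 was higher, 385 and 343 against 436 and 389, a difference of 0.18.

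Snrpd1 (uc008eaz.1), of the Sm ring, had 1325 and 1161 footprints in control and 1003 and 1087 in GS/DA, a difference of -0.25. Snrpb2, of the U2 snRNP, had 780.4 and 821 in control and 751 and 772 in GS/DA, a difference of -0.07. Prpf38a had 608 and 574 in control and 522 and 547 in GS/DA, a difference of -0.14. Each had both GS/DA libraries under both controls, by the widest margin at Snrpd1. In RNA-Seq, 2 of 61 members were above control in both libraries (all transcripts, 1.8%) and 0 below (all transcripts, 1.58%). These were Prpf4, with 317 and 316 in control and 332 and 342 in GS/DA, and Hnrnpul1, with 2321 and 2289 in control and 2461 and 2539 in GS/DA. Their differences were 0.09 and 0.12. Members named here for not overlapping, beyond those past the TE cutoffs, were chosen after their values were seen.

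**Figure D3:**
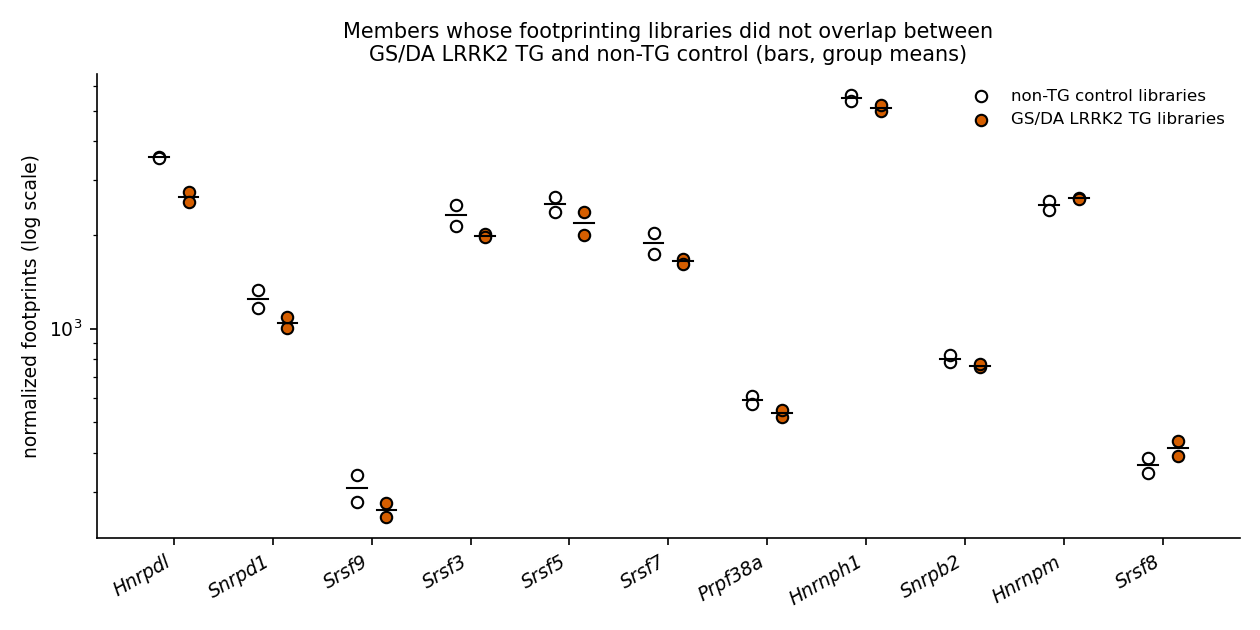
Normalized footprints (log axis) in each control and GS/DA LRRK2 TG library for the 11 members whose groups did not overlap; points are libraries and bars are group means. Of these, 9 are lower in GS/DA, from Hnrpdl at a log2 difference of -0.42 to Snrpb2 at -0.07, and Hnrnpm and the transcript listed as Srsf8 are higher.

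By TE, 8 members were down (12.7%; all transcripts, 7.36%) and 1 was up (1.59%; all transcripts, 3.65%). After a lowess fit on CDS GC content was subtracted, 5 of 62 were down (8.06%; all transcripts, 6.46%) and 4 up (6.45%; all transcripts, 5.17%), and with a minimum set for all 4 means 4 of 53 were down (7.55%; all transcripts, 7.35%) and 2 up (3.77%; all transcripts, 2.47%). Prpf38b had the lowest TE difference, -0.70, with RNA-Seq of 271 and 380.1 in control and 184 and 718 in GS/DA and footprints of 616 and 492 in control and 542 and 404 in GS/DA. Its 2 GS/DA RNA-Seq libraries lay below and above both controls, and its footprints overlapped. Prpf4b had RNA-Seq of 249.8 and 710.4 in control and 194 and 1159 in GS/DA, and footprints of 1121 and 1233 in control and 1017 and 1171 in GS/DA, a TE difference of -0.60. It showed the same layout in RNA-Seq, and its footprints overlapped too. Among the hnRNPs, Hnrnph1 had RNA-Seq of 1252 and 3641 in control and 862 and 5301 in GS/DA, a TE difference of -0.44. Its X-linked relative Hnrnph2 had 991 and 2935 in control and 755 and 4205 in GS/DA, a TE difference of -0.34, with footprints of 3549.8 and 3487 in control and 3384 and 3658 in GS/DA. Footprints of Hnrnph2 overlapped between the groups, unlike those of Hnrnph1.

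The Hnrnpa1 transcript uc007xxp.1 had RNA-Seq of 505 and 1345 in control and 404 and 1740.3 in GS/DA, a TE difference of -0.34, and the other transcript of the gene was at -0.26. Sf3b1, which contacts the branch site, had 1371 and 4336 in control and 1057 and 5937 in GS/DA in RNA-Seq, a TE difference of -0.34. The transcript listed as Srsf12 had 123 and 451 in control and 90.1 and 740.5 in GS/DA, a TE difference of -0.47. All 8 TE-down members had RNA-Seq library 1 lower and library 2 higher than the matching control library. This layout was common to TE-down transcripts and not particular to the members. Of 627 TE-down transcripts with libraries recovered, 69 were above control in library 1 and 610 in library 2, and 8.93% had the same sign in both. Snrpf, of the Sm ring, was the member TE up, at 0.22, with RNA-Seq of 460.3 and 1556 in control and 515 and 1169 in GS/DA and footprints of 729 and 904 in control and 833 and 760.2 in GS/DA. Its values overlapped in both assays. Uncalled members at the high end were Prpf31, a tri-snRNP protein, at 0.17, Srsf5 at 0.16, Snrpa1 at 0.13, Snrpc of the U1 snRNP at 0.12, the transcript listed as Srsf8 at 0.12 and Sf3b4 at 0.08. Hnrnpu, a nuclear scaffold protein, was among the low uncalled members at -0.28.

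Family medians of the TE difference were -0.07 for Prp factors with 3 of 12 down, -0.06 for the Srsf prefix with 1 of 11 down (9.09%), -0.01 for SF3a and SF3b with 1 of 8 down (12.5%), and 0.00 for Sm and snRNP proteins with 1 of 12 up (8.33%), beside 7.36% down and 3.65% up of all transcripts. The TE-down transcript of the Srsf prefix was the one listed as Srsf12, and without it and the one listed as Srsf8 the median was -0.06 with 0 down. Against the median of all transcripts of -0.05, the hnRNPs were lower in the group means, and Sm and snRNP proteins and SF3a and SF3b slightly higher. Of the SR protein kinases and SR-related genes, 18 of 22 listed, 5 were TE down (27.8%; all transcripts, 7.36%) and 1 up (5.56%; all transcripts, 3.65%), with a median of -0.17. Clk1 had 613 and 635 footprints in control and 417 and 445 in GS/DA, a footprinting difference of -0.53. Clk4 had 371 and 393 in control and 252 and 289 in GS/DA, a difference of -0.50. Neither kinase overlapped its control in footprints, and the other TE-down genes were Pnn, Scaf11 and Tra2a, with Clk3 TE up. Other spliceosome components, 66 of 72 listed, had a median TE difference of -0.04, with 9 down (13.6%; all transcripts, 7.36%) and 4 up (6.06%; all transcripts, 3.65%). Rbm39, a U2AF-related splicing factor, had 3819 and 3917 footprints in control and 3281 and 3419 in GS/DA and a TE difference of -0.72, and was chosen after its values were seen.

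In limma, 0 of 61 members passed an adjusted p of 0.05 in footprinting, 0 of 61 in RNA-Seq and 0 of 60 in TE, as did 0% of all transcripts in each fit. At an unadjusted p under 0.05 there was 1 of 61 members in footprinting, Hnrpdl (all transcripts, 1.85%), and 0 in RNA-Seq and in TE (all transcripts, 0% in each). With libraries paired across genotypes as a replicate block, 0 members passed (all transcripts, 0.501% in footprinting and 0% in RNA-Seq and TE), the adjusted p of Hnrpdl was 0.0697, and 9 of 61 members had an unadjusted p under 0.05 in footprinting, a share near the 14.3% of all transcripts. The TE-down count rests on RNA-Seq library 2: from single libraries it was 0 or 1 of 60 members with RNA-Seq library 1 (all transcripts, 3.68% and 4.02%) and 8 or 9 (13.3% and 15.0%) with library 2 (all transcripts, 7.25% and 7.97%). The share of all transcripts thus rose with library 2 as well, and the median TE difference ran from -0.14 to 0.13. Cortical markers differed between the groups: the 4 of 6 listed summed to 1243 and 1792 footprints in control and 2765 and 4335 in GS/DA. Slc17a7, the most abundant, had 673 and 994 in control and 1577 and 2516 in GS/DA. Striatal markers summed to 162168 footprints in the control mean and 131362 in the GS/DA mean, a log2 difference of -0.30. Ttr had 17056 and 1193 footprints in the control libraries and 1137 and 5162 in GS/DA, and the part of these markers in the values of the splicing genes was not tested.

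**Figure D4:**
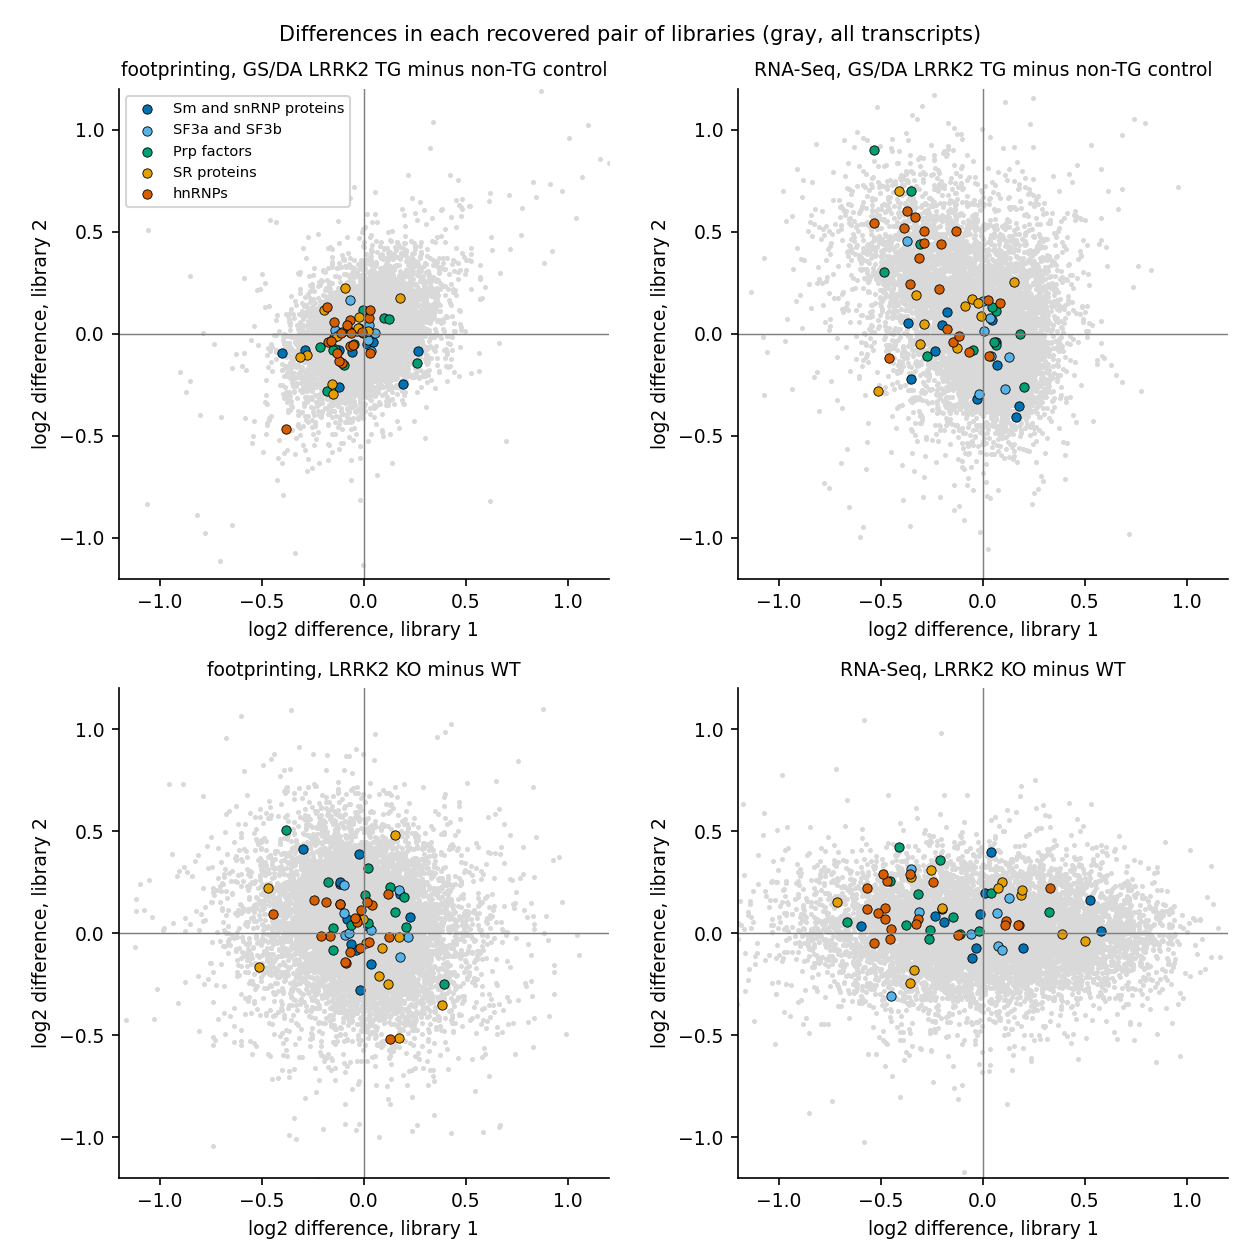
Log2 difference between genotype and control in library 1 against that in library 2, for footprinting and RNA-Seq in GS/DA LRRK2 TG and LRRK2 KO; gray points are all transcripts and colored points the members by family. In GS/DA RNA-Seq the TE-down members lie at negative differences in library 1 and positive ones in library 2, as do most TE-down transcripts of that comparison.

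LRRK2 KO against WT asks how splicing genes are translated without LRRK2. Without LRRK2, the splicing factors and hnRNPs lay on both sides of WT, with medians near 0. The median TE difference was 0.03 against 0.02 for all transcripts, with medians of 0.01 in footprinting and -0.05 in RNA-Seq against 0.02 and 0.01. Single members ran from -0.37 to 0.49 in TE and from -0.40 to 0.35 in RNA-Seq, where the hnRNP median was -0.14, with 6 of 20 above 0 (all transcripts, 51.3%). By library the hnRNP RNA-Seq median was -0.40 in library 1 and 0.07 in library 2, and the member median -0.20 and 0.09. TE was called up for 1 of 65 members (1.54%; all transcripts, 6.23%) and down for 0 (all transcripts, 6.02%). Family medians of TE ran from -0.08 for the Srsf prefix, or 0.00 without the transcripts listed as Srsf8 and Srsf12, to 0.08 for hnRNPs, of which 14 of 20 lay above 0 (all transcripts, 53.0%); Prp factors and SF3 subunits were both at 0.05 and Sm and snRNP proteins at 0.01.

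Sf3b5 (uc007eki.2) was the TE-up member, at 0.49. It had RNA-Seq of 403 and 301 in WT and 293 and 241 in KO, and footprints of 249 and 285 in WT and 232 and 338 in KO. Both KO libraries were under both WT libraries in RNA-Seq, while footprints overlapped. The largest SF3b subunit, Sf3b1, was at -0.09, with RNA-Seq of 1606 and 2197 in WT and 1253 and 2733 in KO. Sf3a1 had higher RNA-Seq in KO, 876 and 848 in WT and 959.6 and 955 in KO, and Sf3a3 had lower footprints, 294 and 279.6 in WT and 276 and 278 in KO. Neither overlapped its WT libraries in that assay.

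In footprinting, 5 of 65 members were above WT in both KO libraries (all transcripts, 6.24%) and 4 below (all transcripts, 6.42%). In RNA-Seq, 6 were above (all transcripts, 7.06%) and 2 below (all transcripts, 7.05%), so no count stood clear of the background. Among the SR proteins, Srsf7 had 289 and 284 footprints in WT and 323 and 401 in KO, a footprinting difference of 0.34 and a TE difference of 0.41. Srsf5 had 829 and 888 footprints in WT and 578 and 791 in KO, a difference of -0.33. The first lay above WT and the second below it, with no overlap for either. Srsf5 was lower in RNA-Seq too, 1187 and 890.2 in WT and 924 and 749 in KO, where the groups overlapped. Srsf4 had more RNA-Seq reads in KO, 617 and 661 in WT and 705 and 767 in KO, and a TE difference of -0.22. Both KO values of Srsf4 lay above both WT values. Srsf13b had 42.6 and 32.7 footprints in WT and 28.0 and 39.7 in KO and the lowest TE difference, -0.37. Srsf9 was next at -0.35, and the transcript listed as Srsf8 was at -0.23.

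Snrpa1 was higher in KO in both assays, with footprints of 86.6 and 94.2 in WT and 99.3 and 109 in KO and RNA-Seq of 147 and 183 in WT and 216 and 206 in KO. Hnrnph3 did the same, with footprints of 250.5 and 239 in WT and 273 and 275 in KO and RNA-Seq of 336 and 409.6 in WT and 424 and 478 in KO. Neither gene overlapped WT in either assay, and their TE differences were -0.15 and -0.11. Prpf31 was lower in both, with footprints of 253 and 258 in WT and 227 and 242 in KO and RNA-Seq of 334 and 318 in WT and 308 and 317 in KO, by small gaps. Snrpn had RNA-Seq of 4452 and 5017 in WT and 6652 and 5052 in KO, no overlap but a narrow gap, and a TE difference of -0.16. Of the other members without overlap, Hnrnpul2 was above WT in RNA-Seq, Prpf38a and Prpf40b above it in footprints, and Hnrnpm below it in footprints. KO genes given only because their groups did not overlap were chosen after their values were seen.

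Several abundant hnRNPs were at the upper end of the TE differences in KO without being called. Hnrnpk had RNA-Seq of 3956 and 1354 in WT and 2829.9 and 1422 in KO and footprints of 3711 and 3324 in WT and 3417 and 3674 in KO, a TE difference of 0.33. Hnrnph2 had RNA-Seq of 1098 and 697 in WT and 737 and 757 in KO, a TE difference of 0.34. In both, the WT libraries lay on either side of the KO libraries in RNA-Seq. Prpf4 was at 0.37, Hnrnpc, which binds U-rich tracts, at 0.27, Hnrnpf at 0.27 and Hnrnph1 at 0.25. At the lower end, Hnrnpab was at -0.19, Hnrnpm at -0.14 and Hnrnpl, which binds CA repeats, at -0.12. Prpf39, listed in this table alone, had 111 and 48.3 footprints in WT and 82.5 and 72.6 in KO and a TE difference of -0.05, and the Hnrnpa1 transcripts were at 0.00 and 0.08.

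SR protein kinases and SR-related genes, 19 of 22 listed, had a median TE difference of 0.00 in KO, with 1 up (Srrm4, 5.26%) and 0 down. Other spliceosome components, 66 of 72 listed, had a median of 0.02, with 2 up (Lsm2 and Plrg1, 3.03%) and 2 down (Ddx23 and Lsm7, 3.03%), beside 6.23% up and 6.02% down of all transcripts. In limma, 0 of 65 members passed an adjusted p of 0.05 in footprinting, RNA-Seq or TE, as did 0% of all transcripts, and 0 members had an unadjusted p under 0.05 in any of the 3 fits (all transcripts, 0.158%, 0.0737% and 0.0421%). With a replicate block, 0 members passed (all transcripts, 0.147%, 0.116% and 0%). From single libraries the median TE difference ran from -0.12 to 0.19, below 0 with RNA-Seq library 2 and above 0 with library 1, and TE-up and TE-down counts each ran from 1 to 4 of 65 (1.54% to 6.15%; all transcripts, 5.99% to 6.75% up and 6.10% to 6.57% down). Erythrocyte markers, 3 of 4 listed without Hba-a1, summed to 1364 and 5375 footprints in WT and 1537 and 2716 in KO, Hba-a2 being the most abundant. Summed RNA-Seq of astrocyte markers was 6810 and 4415 in WT and 4367 and 4208 in KO, a log2 difference of -0.39. The RNA-Seq difference was -0.27 for cortical markers, -1.03 for Ttr and 0.33 for microglia markers. It was 0.06 for striatal and -0.09 for oligodendrocyte markers. The part of these markers in the values of the splicing genes was not tested.

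GS and GS/DA were each compared with non-TG control samples, so the comparisons are not independent, and their values are set side by side only. The hnRNP median TE difference was 0.27 in GS and -0.20 in GS/DA, and the hnRNP RNA-Seq median was -0.33 and 0.11, the latter -0.22 in library 1 and 0.24 in library 2. Prpf38b had TE differences of 1.09 and -0.70, with RNA-Seq differences of -1.23 and 0.47. Prpf4b had 0.58 and -0.60, and Hnrnph1 0.49 and -0.44. Hnrpdl footprints differed by 0.17 in GS and -0.42 in GS/DA, and Srsf5 footprints by 0.58 and -0.20. Whether GS and GS/DA differ from each other was not tested.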

How the data were processed

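The deposited tables give, for each group and assay, 1 normalized mean per transcript, a signal that the authors made by mapping reads to mm9 with TopHat 2.0.11 and Bowtie2 2.2.2, counting reads in the CDS and dividing by DESeq 1.20 size factors. The deposited 5′UTR folding energy is a score in kcal/mol. The authors' columns of TE, its difference and its z score were not used. The means are not counts, so edgeR was not run. Single libraries were recovered from the whole-read steps inside each mean, with 97.8% to 99.6% of transcripts resolved in the 10 columns recovered, and the method was tested on simulated data. The labels list 3 footprinting samples for WT, KO and non-TG control and 3 RNA-Seq samples for non-TG control, and each recovered mean held 2; the 2 ventral midbrain samples are in no table. limma 3.58.1 in R 4.3.3 was fitted to log2(normalized reads + 10) over all transcripts, for footprinting, RNA-Seq and TE (genotype by assay), with Benjamini-Hochberg adjustment and a threshold of 0.05. GS has no limma fit, since its table's 2 control columns were not resolved and no spread was at hand. Scripts used Python 3.11.15, numpy 2.4.6, pandas 2.3.3, scipy 1.17.1, statsmodels 0.14.6 and matplotlib 3.10.9.

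Members and lists were chosen with earlier results of these data known. Named by rule were the 5 members at each end of the TE difference, the same among members with all 4 means of at least 500, members past a TE cutoff or an adjusted p of 0.05, the ends of control TE and of folding energy, those with the most control footprints, and those with 2 transcripts or listed in 1 table; a gene met by these rules is not reported here. All 4 means reached 500 for 50, 53 and 26 members in the GS, GS/DA and KO tables. Alternatives were a filter at 512, a pseudocount of 10, 1 transcript per symbol, rescaling to the median of all transcripts, a GC correction of differences, a z score from the median and scaled MAD, single libraries, and libraries as a replicate block.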

Additional observations from a re-analysis of the deposited data

How the results depend on the processing

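Across 181 recomputed values, 23 TE call counts moved past 1.5 times the reported count and 29 did not, and 15 medians moved past a bar and 64 did not. The bar was the median log2 library ratio of the members divided by the square root of 2. It was wide in the transgenic tables, whose RNA-Seq libraries were far apart, so a median within it is not thereby stable. The GS/DA TE median turned sign between libraries (-0.14 to 0.13). All 15 moved medians were in the knockout table, where ratios of both signs nearly cancelled and the bar was narrow. In KO RNA-Seq the median ratio was 0.007, against 0.32 without sign. A shift of the RNA-Seq median from -0.052 to -0.060 thus counted as moved, so that label says little there. The 50 limma counts were all 0 members, which says little on stability, since 0 of all transcripts passed in most of these fits and many had a group of 1 library. With the higher minimum for all 4 means, GS had 13 of 50 members up (26.0%; all transcripts, 7.96%) and 0 down (all transcripts, 3.27%). Under the same minimum, GS/DA had 2 up and 4 down of 53 (all transcripts, 2.47% and 7.35%), and KO had 0 up of 26 (all transcripts, 6.70%). The KO median TE difference was then 0.057 and the WT median control TE -0.041. A pseudocount of 10 gave 0 TE-down members in GS (all transcripts, 3.98%) and 2 TE-up members in KO (all transcripts, 6.47%). The scaled MAD called more of all transcripts too, with 19 TE-up members in GS (30.2%; all transcripts, 11.6%), 3 in GS/DA (4.76%; all transcripts, 5.94%) and 2 in KO (3.08%; all transcripts, 7.60%), and 1 TE-down member in KO (1.54%; all transcripts, 7.19%). A lowess fit on CDS GC content gave a median TE difference of 0.056 in GS, -0.0057 in GS/DA and -0.016 in KO, with 4 up and 5 down of 62 in GS/DA (all transcripts, 5.17% and 6.46%), and turned the GS/DA RNA-Seq median from 0.023 to -0.036. Rescaling to the median of all transcripts gave -0.0050 for TE and -0.032 for RNA-Seq in GS/DA. Leaving out 1 library of each group per assay gave, in GS/DA, 1 to 4 up (all transcripts, 4.29% to 7.96%) and 0 to 9 down (all transcripts, 3.68% to 7.97%), and in KO 1 to 4 up (all transcripts, 5.99% to 6.75%), 1 to 4 down (all transcripts, 6.10% to 6.57%) and a median TE difference of -0.12 to 0.19. With a replicate block the adjusted p of Hnrpdl footprints in GS/DA was 0.0697. The cause of these shifts was not tested. Call counts from single libraries, and values without the transcripts listed as Srsf8 and Srsf12, were added after seeing the data. For GS, limma and single-library alternatives gave no value, since the control libraries were not recovered. Depth limits the knockout table most, where the least covered member had 20 reads in a footprinting library.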

Other observations

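Splicing regulators outside the 7 prefixes were read from a list of neuronal and other RNA-binding proteins, 49 of 50 of which were listed. Their median TE difference was 0.08 in GS LRRK2 TG, -0.07 in GS/DA LRRK2 TG and 0.11 in LRRK2 KO, with 3 up and 3 down (each 6.12%; all transcripts, 8.01% and 3.91%), 0 up and 4 down (8.16%; all transcripts, 3.65% and 7.36%), and 3 up and 0 down (6.12%; all transcripts, 6.23% and 6.02%). Matr3, a nuclear matrix protein that binds RNA, had RNA-Seq of 608 and 6791 in non-TG control and 439.7 and 9816 in GS/DA, a TE difference of -0.48. In KO its RNA-Seq was 1752 and 1960.2 against 3105 and 1715 in WT, a TE difference of 0.44, and the groups overlapped in both comparisons. Elavl4, a neuronal binder of AU-rich RNA, had 361 and 195 RNA-Seq reads in WT and 217 and 183 in KO, a TE difference of 0.65, and Mbnl1, which controls developmental splice switches, was at 0.47. RNA-Seq of Elavl4 overlapped between WT and KO. In GS the called genes included Celf4 (0.44) and Zranb2 (0.57) up, and Rbm4 (-0.54), Rbm4b (-0.49) and Elavl2 (-0.40) down. In GS/DA, Syncrip (-0.40) and Zranb2 (-0.51) were also down, with the gene listed as Slm1. Genes of this list were named after their calls were seen.

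Genes of the exon junction complex and of mRNA export, which act on spliced transcripts, had median TE differences of -0.03 in GS (16 of 18 listed), -0.05 in GS/DA and 0.08 in KO (18 listed). The called genes were Rbm8a, a core subunit of the complex, and Thoc1 up in GS (12.5%; all transcripts, 8.01%), Thoc1 and Thoc2 down in GS/DA (12.5%; all transcripts, 7.36%), and Upf3a down in KO (5.56%; all transcripts, 6.02%). Thoc1, an export factor, had RNA-Seq of 84.0 and 549 in non-TG control and 58.6 and 771 in GS/DA, a TE difference of -0.54. Library 1 was lower in GS/DA and library 2 higher. Upf3a, of the decay machinery that reads the complex, had RNA-Seq of 239 and 335 in WT and 365 and 339 in KO and a TE difference of -0.50. Both KO libraries of Upf3a lay above both WT libraries.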
